A study of Mus musculus with 40 samples.

Results

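Interferon-response genes are the genes that a cell switches on when an interferon binds its receptor. The 40 genes described here were chosen by name, from the gene symbol of each probe row, and each was read from its brightest detected probe. Of the 40, 38 had a probe row, 33 had a probe that passed the detection filter over all 40 arrays, and 9451 genes in all passed that filter. They were compared in bone of 15-week-old female C57BL/6 mice that were wild type or carried an estrogen receptor alpha that lacks its activation function 1 (AF-1), one of its regions that drive transcription. All mice were ovariectomized, so the vehicle groups lack ovarian estrogen too, and 1 week later they received estradiol (E2) at 115 µg/kg under the skin or olive oil, with RNA taken 18 h after that. Trabecular bone stands for the vertebral bodies L5 and L6, and cortical bone for flushed shafts of long bones. Bone, genotype and treatment give 8 groups of 5 arrays.

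Cells sense viral nucleic acid through helicases such as RIG-I (Ddx58) and MDA5 (Ifih1) and answer by making interferons. Type I interferons signal through JAK kinases to a complex that holds STAT2 and IRF9 and binds a DNA element called ISRE, while interferon gamma acts at a GAS element. The genes so induced include oligoadenylate synthetases, which activate an RNase that degrades RNA, the ubiquitin-like protein ISG15 and its enzymes, GTPases that attack intracellular microbes, and the immunoproteasome. In bone, interferons are known to restrain the formation of osteoclasts from marrow precursors.

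The 40 arrays lay on 5 BeadChips of 8 arrays, and each BeadChip carried 1 array of every group. The 4 trabecular arrays of BeadChip 1 stood apart, with 8052 to 9218 detected probes against 10357 to 11203 on the other 16 trabecular arrays, while the cortical arrays had 9880 to 11691. Results between the bones are therefore also given without BeadChip 1. The labels do not say whether arrays of a group are separate animals, or whether the same mice gave both bones, so a p-value here reflects array-to-array spread only, part of which may be technical. Esr1, the targeted gene, was detected on 9 of 10 wild-type and 8 of 10 AF-1 deletion arrays in trabecular bone and on all 20 cortical arrays. The position of its probe relative to the deletion is not known, so this checks nothing about the genotype labels. Levels below are background-corrected and quantile-normalized log2 intensities, listed from BeadChip 1 to 5, and differences are log2 with the standard error of the limma fit.

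Isg15 and Xaf1 had no probe row under those symbols and were not analysed here. Oas1a, Ifih1, Ifit1, Mx1 and Ifi44 had rows, but none of their probes was detected on any of the 40 arrays. Ifih1 and Ifit1, a viral RNA sensor and an RNA-binding antiviral protein, are thus known here only to lie within background, and Mx1 is defective in most laboratory mouse strains. Of the 33 members read, 19 were detected on all 40 arrays. The chemokine gene Cxcl10 and Rtp4 were detected on 8 arrays each, the RIG-I ubiquitin ligase Trim25 on 18, the oligoadenylate synthetase Oas3 and the GTPase Mx2 on 26 each, and the synthetase-like Oasl1 on 29. For these dim members a difference is compressed towards background. Within trabecular bone 31 members could be tested, without Rtp4 and Cxcl10, and within cortical bone 32, without Cxcl10.

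The promoters were searched for the elements through which interferons act. The genes were chosen by name as interferon-response genes, so an excess of these elements comes with the choice. It is no result about these samples. Members were matched by symbol to windows of the RefSeq promoter table (GRCm38.p6), and 32 had 1 or more. In the 250 bases before the annotated start, the ISRE core, GAAA, any 2 bases and GAAA again, was looked for on both strands, with overlapping matches counted. It was found in 14 of 32 members, 43.8%, against 3.46% of 27025 genes in the table. The GAS core TTCNNNGAA, which reads the same on both strands and may overlap the ISRE, was found in 8 members, 25%, against 8.13% of genes. The following stretches show the match in capitals, 5′ to 3′ on the gene's strand. They come from 4 members called between the bones in 1 or more groups (limma, adjusted p below 0.05) and from 2 not called.
Oas3: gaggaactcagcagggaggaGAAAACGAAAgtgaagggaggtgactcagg
Rsad2: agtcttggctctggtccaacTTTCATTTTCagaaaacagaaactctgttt
Igtp: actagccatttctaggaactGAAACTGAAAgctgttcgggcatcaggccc
Stat2: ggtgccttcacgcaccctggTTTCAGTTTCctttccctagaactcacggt
Ifit3 upstream match: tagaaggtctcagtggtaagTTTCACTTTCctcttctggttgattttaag
Ifit3 downstream match: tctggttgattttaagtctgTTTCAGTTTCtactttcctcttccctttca
Irgm1: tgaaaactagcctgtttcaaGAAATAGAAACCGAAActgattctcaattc

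The Oas3 stretch is at chr5:120777705-120777754 on the minus strand, with the match 75 to 66 bases before the start. That of Rsad2, the gene of the antiviral enzyme viperin, is at chr12:26456543-26456592 on the minus strand, that of the GTPase Igtp at chr11:58199502-58199551 on the plus strand and that of Stat2 at chr10:128270256-128270305 on the plus strand. In Rsad2, Stat2 and Ifit3 the core lies on the opposite strand and so reads as its reverse complement. Ifit3, an antiviral tetratricopeptide protein, has separate matches at chr19:34583353-34583402 and chr19:34583387-34583436, and the GTPase Irgm1 has 2 overlapping matches at chr11:48871421-48871470, minus strand, that form 1 run of capitals. A match was present in 4 of the 10 members with a window that were called higher in trabecular bone in any comparison, and in 7 of the 16 that were tested and not called.

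Read together, the 33 members were higher in trabecular than in cortical bone on nearly every BeadChip. For each array the members' log2 levels, each minus the gene's mean over the 40 arrays, were averaged. This value ran from −0.15 to 0.69 with a median of 0.21 over the 20 trabecular arrays, and from −0.69 to 0.29 with a median of −0.30 over the 20 cortical arrays. The ranges overlap: 6 trabecular arrays lay above every cortical array and 12 cortical arrays below every trabecular one. Arrays of the same BeadChip, genotype and treatment can be set side by side, and in 19 of 20 such pairs the trabecular array was higher, with a median difference of 0.34. Without BeadChip 1 it was higher in 15 of 16 pairs, with a median difference of 0.41. The exception was the AF-1 deletion with E2 on BeadChip 3, with 0.11 in trabecular and 0.18 in cortical bone.

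**Figure D1:**
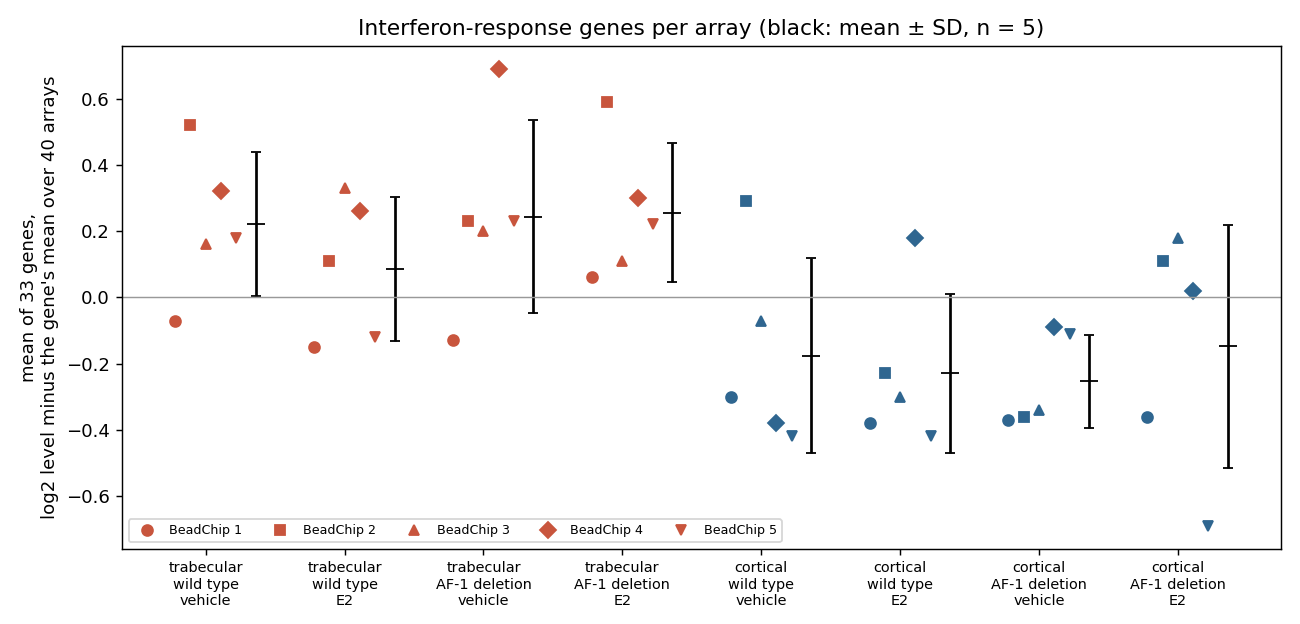
Mean level of the 33 interferon-response genes on each array (y axis, log2 relative to each gene's mean over the 40 arrays) in the 8 groups (x axis); symbols mark the BeadChip, and black bars are the group mean ± SD, n = 5. Trabecular arrays (red) run from −0.15 to 0.69 and cortical arrays (blue) from −0.69 to 0.29, while E2 and vehicle arrays of a bone overlap.

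Group means of this value were 0.22 ± 0.22 in wild type with vehicle, 0.09 ± 0.22 in wild type with E2, 0.24 ± 0.29 in the AF-1 deletion with vehicle and 0.26 ± 0.21 in the AF-1 deletion with E2 for trabecular bone (SD, n = 5). For cortical bone they were −0.18 ± 0.29, −0.23 ± 0.24, −0.25 ± 0.14 and −0.15 ± 0.36 in the same order. Within each bone the 4 groups overlapped. The highest array of all was a trabecular one with the AF-1 deletion and vehicle (BeadChip 4) and the lowest a cortical one with the AF-1 deletion and E2 (BeadChip 5).

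**Figure D2:**
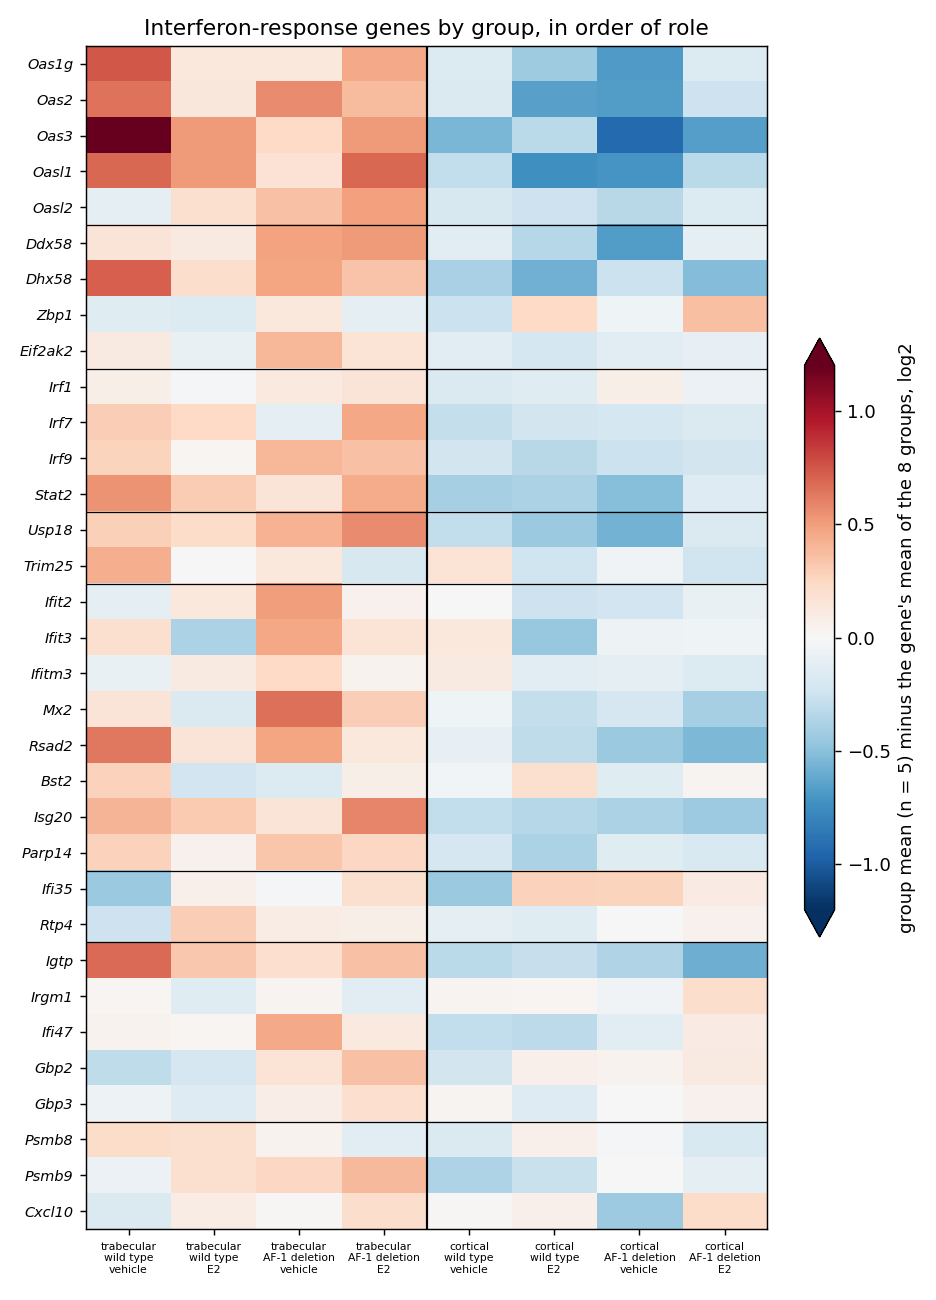
Group means (n = 5) of the 33 genes minus the mean of the gene's 8 group means, log2 (colour), with genes in order of role separated by lines and the 8 groups in columns. The left 4 columns, trabecular bone, are mostly red for the oligoadenylate synthetases, Dhx58, Irf9, Stat2, Usp18 and Igtp, and the right 4, cortical bone, mostly blue, while Gbp2, Gbp3, Zbp1 and Irgm1 show no such split.

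The next question was which members differ between the bones in each genotype and treatment. Calls were made at an adjusted p below 0.05 (limma, Benjamini-Hochberg over all genes tested). With wild type and vehicle, 5 of 33 members were called, all higher in trabecular bone, or 15.2%. Over all genes tested 20.6% were called, 9.01% higher and 11.6% lower. With wild type and E2, 4 members were called higher and 0 lower, or 12.1%, against 19.4% of all genes, of which 7.99% higher. With the AF-1 deletion and vehicle, 9 were called higher and 0 lower, or 27.3%, against 22.3% of all genes, of which 9.5% higher. With the AF-1 deletion and E2, 6 were called higher and 0 lower, or 18.2%, against 22.9% of all genes, of which 11% higher. The share of members called at all was thus close to that of other genes, and the calls lay on 1 side.

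The median difference of the members, trabecular minus cortical, was 0.30, 0.37, 0.53 and 0.43 in that order, against 0.06, 0.05, 0.06 and 0.06 over all genes. Positive differences were found for 26, 27, 31 and 30 of the 33 members, against 55.9%, 55.5%, 55.4% and 55.2% of all genes. The members vary together within groups, so these counts are not over independent genes. In all, 13 members were called in 1 or more of the 4 comparisons and 23 were positive in all 4, while 0 were negative in all 4. The share of all genes positive or negative in all 4 was not counted, so nothing is drawn from those sign counts. Over all 9451 genes, 1815 were called higher in 1 or more comparisons and 227 in all 4. Dhx58 and Oas3 were called in all 4, Oas2 in 3, Igtp, Irf9 and Usp18 in 2, and the other 7 in 1. In bulk RNA, fewer cells that express a gene and less of its RNA per cell cannot be told apart.

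These counts depend on the scaling and on single BeadChips. With the replicate block, which compares arrays of the same BeadChip, the counts were 8, 5, 11 and 8. Calls over all genes rose with the block too, to 2316, 2216, 2505 and 2542 from 1950, 1832, 2103 and 2168. After median scaling in place of quantile normalization they fell to 1, 0, 1 and 0, with Oas3 the 1 member left, while the members' median differences stayed at 0.20, 0.27, 0.41 and 0.37. The split of all calls moved as well under that scaling: 7.55%, 3.94%, 6.34% and 10.2% of the genes called were higher in trabecular bone, against 43.7%, 41.2%, 42.7% and 47.8% with quantile normalization. Without BeadChip 1 the counts were 7, 5, 13 and 5. They were 4, 1, 4 and 4 without BeadChip 2, 4, 0, 7 and 8 without BeadChip 3, 2, 2, 6 and 3 without BeadChip 4, and 2, 1, 9 and 0 without BeadChip 5. Calls over all genes moved as well when 1 BeadChip was left out, between 863 and 2645, 701 and 1888, 1128 and 2714, and 950 and 2144 in the 4 groups. In each of these settings 0 members were called lower. Without BeadChip 1, 4 of the 24 calls ended, Oas2 with wild type and E2 and Igtp, Usp18 and Irf9 with the deletion and E2, and the members' medians were 0.36, 0.36, 0.47 and 0.36.

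**Figure D3:**
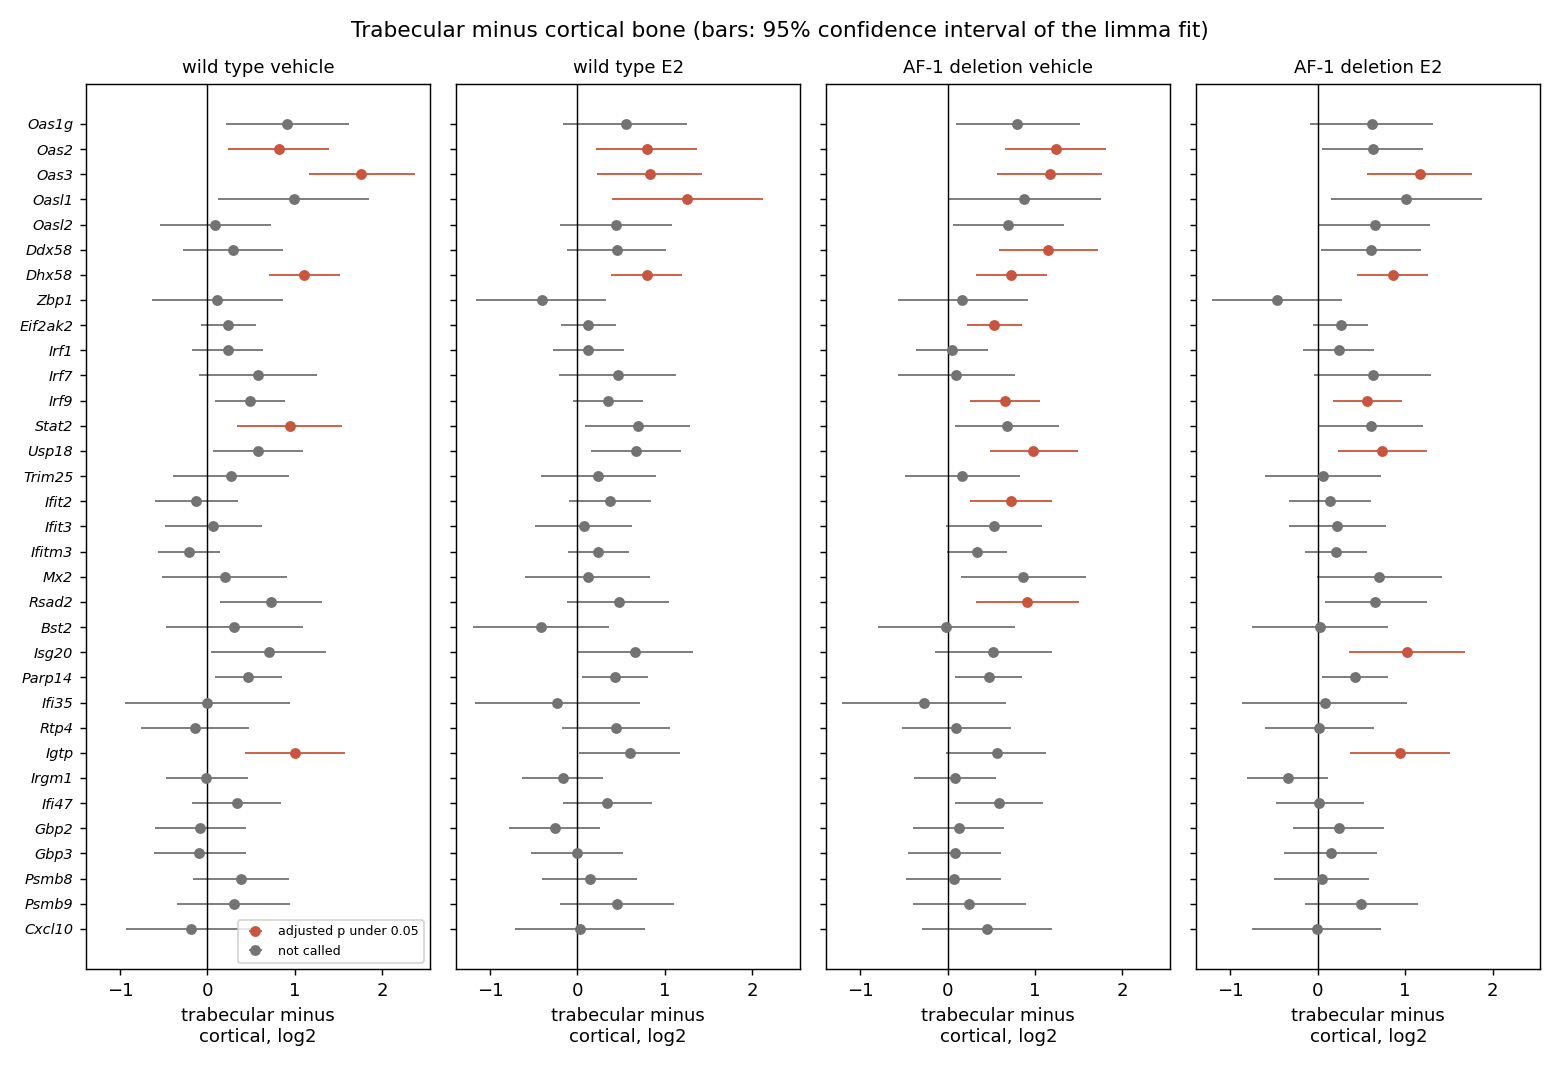
Trabecular minus cortical log2 difference (x axis) of each of the 33 genes (y axis, in order of role) in the 4 genotype and treatment groups, with 95% confidence intervals from the limma fit; red points are called at an adjusted p under 0.05 and grey points are not. All 24 red points lie to the right of 0, between 0.53 for Eif2ak2 and 1.76 for Oas3.

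The oligoadenylate synthetases held 8 of the 24 calls. Oas3, which makes the oligoadenylates that activate RNase L, read 8.77, 8.03, 8.06, 7.72 and 8.19 in trabecular and 6.07, 6.68, 6.84, 6.15 and 6.21 in cortical bone of vehicle-treated wild type. These ranges do not touch, and the difference was 1.76 ± 0.30 (limma, adjusted p = 4.79e-05). Only 2 of the 5 cortical arrays detected Oas3 there, so its cortical level lies mostly within background and no fold is given. The 4 members whose trabecular arrays all lay above the cortical ones in this group were Oas3, Dhx58, Igtp and Oas1g, or 12.1%, against 6% of all genes. With wild type and E2, Oas3 read 7.27, 7.24, 7.89, 7.69 and 7.10 against 6.66, 6.66, 6.16, 7.04 and 6.53. The lowest trabecular array was just above the highest cortical one, and the difference was 0.83 ± 0.30 (limma, adjusted p = 0.0462).

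With the AF-1 deletion and vehicle, Oas3 read 6.01, 7.14, 7.57, 7.67 and 7.47 in trabecular and 5.87, 6.15, 5.45, 6.16 and 6.36 in cortical bone. It was not well above background on any of the 5 cortical arrays, so its level there is a bound. The groups overlapped through trabecular BeadChip 1, and trabecular bone was at least 1.5-fold higher (means 7.17 and 6.00 as measured, limma, adjusted p = 0.00432). With the AF-1 deletion and E2 it read 6.65, 7.89, 7.51, 7.53 and 7.60 against 5.27, 7.08, 6.47, 6.87 and 5.64, a difference of 1.17 ± 0.30 (limma, adjusted p = 0.00445). Here the groups overlapped, since BeadChip 1 was lowest in trabecular bone and BeadChip 2 highest in cortical bone. Over the 20 same-BeadChip pairs, Oas3 was higher in trabecular bone in 20. How many of all genes were higher in 20 of 20 pairs was not counted, here or for the members below. Its call with wild type and E2 was weak and ended in 8 of 16 alternatives. Over the alternatives the Oas3 difference in vehicle-treated wild type ranged from 0.84 to 1.90, and its adjusted p (limma) stayed at or under 0.00246.

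Oas2, another synthetase of the same pathway, was called in 3 groups. In vehicle-treated mice with the deletion it read 9.33, 9.95, 10.43, 10.45 and 10.18 in trabecular and 8.55, 8.51, 8.73, 8.97 and 9.41 in cortical bone, where only trabecular BeadChip 1 fell into the cortical range. The difference was 1.24 ± 0.28 (limma, adjusted p = 0.00176), and it was 0.82 ± 0.28 with wild type and vehicle (limma, adjusted p = 0.0376) and 0.79 ± 0.28 with wild type and E2 (limma, adjusted p = 0.0463). With the deletion and E2 it was 0.63 ± 0.28 and not called. The calls in wild type were less firm, each ending in 8 of 17 alternatives.

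Oasl1, a synthetase-like protein that is known in mouse to restrain translation of Irf7, was called with wild type and E2. It read 8.38, 7.04, 7.41, 7.88 and 7.44 in trabecular and 6.14, 6.57, 6.38, 7.13 and 5.68 in cortical bone, with 1 overlapping array on each side, and differed by 1.25 ± 0.43 (limma, adjusted p = 0.0355). Its other kept probe gave a mean bone difference of 0.86 over all arrays against 1.03 for the one used. Oas1g differed by 0.55 to 0.91 and was not called (smallest adjusted p = 0.056, limma), and Oasl2 by 0.09 to 0.69. The Oas1 genes of the mouse are near-identical copies, so the Oas1g signal may include RNA of others. All 5 synthetases read were positive in all 4 groups, a count for which the share of all genes is not known here.

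Of the sensors, Dhx58 stood out. It encodes LGP2, a helicase that modulates signalling by RIG-I and MDA5. In vehicle-treated wild type it read 10.29, 9.80, 9.42, 9.56 and 9.72 in trabecular and 8.08, 9.14, 8.95, 8.35 and 8.71 in cortical bone. With E2 in wild type it read 9.32, 9.32, 9.39, 9.06 and 9.16 against 8.30, 8.42, 8.14, 8.89 and 8.55. In both the bones were fully apart, with differences of 1.11 ± 0.20 and 0.79 ± 0.20 (limma, adjusted p = 0.000114 and 0.00575). Among the members only Oas3 and Dhx58 were fully apart with wild type and E2, 2 of 33 or 6.06%, against 5.79% of all genes.

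In vehicle-treated mice with the AF-1 deletion Dhx58 read 8.82, 9.55, 9.62, 9.90 and 9.67 in trabecular and 8.81, 8.51, 8.67, 8.93 and 8.99 in cortical bone, where the groups met through trabecular BeadChip 1. With the deletion and E2 it read 9.05, 9.56, 9.28, 9.56 and 9.45 against 8.44, 8.71, 8.99, 8.55 and 7.93 and was the 1 member fully apart, or 3.03%, against 7.73% of all genes. The differences were 0.73 ± 0.20 and 0.86 ± 0.20 (limma, adjusted p = 0.00829 and 0.00228). Dhx58 was higher in trabecular bone in 20 of 20 same-BeadChip pairs. It kept its 4 calls without BeadChip 1 but lost at least 1 of them without BeadChip 2, 3, 4 or 5. After median scaling none of the 4 remained, with differences of 0.93, 0.68, 0.62 and 0.78 (limma, adjusted p from 0.128 to 0.433).

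Ddx58, the gene of RIG-I, was called in vehicle-treated mice with the deletion, where it read 7.90, 8.22, 8.0, 8.06 and 8.17 in trabecular and 7.23, 6.81, 5.77, 7.30 and 7.46 in cortical bone. The groups were apart, and the difference of 1.15 ± 0.28 (limma, adjusted p = 0.00293) includes a low cortical array on BeadChip 3. In the other groups it was 0.29, 0.45 and 0.61 and not called. Eif2ak2, the gene of the RNA-activated kinase PKR, was called in the same group, with 11.04, 10.82, 10.91, 10.81 and 10.81 against 10.27, 10.17, 10.33, 10.44 and 10.52. The groups were apart, and the difference was 0.53 ± 0.16 (limma, adjusted p = 0.0125). Zbp1, a sensor of Z-form nucleic acid, had differences from −0.47 to 0.17 and was higher in trabecular bone in 6 of 20 pairs.

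With the deletion and vehicle, 6 members were fully apart, Ddx58, Eif2ak2, Ifit2, Irf9, Rsad2 and Usp18, or 18.2%, against 6.58% of all genes. Irf9, the DNA-binding part of the complex with STAT2, read 11.05, 10.80, 10.84, 11 and 10.52 in trabecular and 10.33, 10.10, 9.96, 10.46 and 10.07 in cortical bone there. It differed by 0.66 ± 0.20 (limma, adjusted p = 0.015), and by 0.57 ± 0.20 with E2 (limma, adjusted p = 0.0343). The E2 call of Irf9 ended in 9 of 17 alternatives. Stat2, the partner of IRF9, was called with wild type and vehicle, where it read 9.25, 8.30, 8.17, 8.79 and 8.15 against 8.16, 8.19, 7.98, 7.43 and 6.22. The groups overlapped slightly, a low cortical array on BeadChip 5 stood out, and the difference was 0.94 ± 0.30 (limma, adjusted p = 0.0211). Irf7, the main amplifier of interferon production, differed by 0.10 to 0.63, and Irf1 by 0.05 to 0.24, neither called. The other kept probes of Irf1 gave mean bone differences of 0.26 to 0.42 over all arrays, against 0.16 for the one used.

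Usp18, which removes ISG15 from proteins and blunts the type I receptor, was called in both groups with the deletion. With vehicle it read 10.08, 9.77, 10.22, 10.79 and 10.16 in trabecular and 9.05, 9.05, 9.28, 9.37 and 9.33 in cortical bone, fully apart, with a difference of 0.98 ± 0.25 (limma, adjusted p = 0.00448). With E2 it read 10.57, 10.82, 9.94, 10.18 and 10.22 against 9.57, 10.10, 9.89, 9.58 and 8.90. There the groups overlapped by 1 array on each side, and the difference was 0.74 ± 0.25 (limma, adjusted p = 0.0305). In wild type it was 0.58 and 0.67, not called, yet Usp18 was higher in trabecular bone in 20 of 20 pairs. Its other kept probe, detected on 22 arrays, gave a mean bone difference of 0.34 over all arrays, against 0.74 for the one used. Trim25 differed by 0.06 to 0.27 and was not called.

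Of the 8 antiviral effectors read, 3 were called, each in 1 group. Rsad2, with the deletion and vehicle, read 13.79, 13.49, 13.51, 13.54 and 13.55 in trabecular and 12.77, 12.58, 12.53, 12.65 and 12.79 in cortical bone, fully apart, and differed by 0.91 ± 0.29 (limma, adjusted p = 0.0207). Ifit2, which binds viral RNA with its relatives, read 9.12, 8.62, 8.41, 9.15 and 8.79 against 8.35, 7.85, 8.01, 8.27 and 7.99 there and differed by 0.73 ± 0.23 (limma, adjusted p = 0.0222). With wild type and vehicle Ifit2 had −0.13, so its sign was not the same in all groups. Isg20, an RNA exonuclease, was called with the deletion and E2, where it read 10.66, 8.88, 9.18, 9.14 and 8.88 against 9.05, 8.71, 8.79, 8.42 and 6.68. The difference of 1.02 ± 0.33 (limma, adjusted p = 0.022) includes a high trabecular array on BeadChip 1 and a low cortical one on BeadChip 5. The groups overlapped, and without BeadChip 5 the difference was 0.73 and no longer called (limma, adjusted p = 0.125).

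The other effectors were not called. Parp14, an ADP-ribosyltransferase, differed by 0.43 to 0.47 in all 4 groups and was higher in trabecular bone in 19 of 20 pairs (smallest adjusted p = 0.0642, limma). Mx2 differed by 0.12 to 0.86 and Ifit3 by 0.07 to 0.53. Ifitm3, a membrane protein that blocks viral entry and has the brightest probe of the list, read 12.75, 14.15, 13.81, 13.86 and 13.86 in trabecular and 14.29, 13.90, 13.93, 13.67 and 13.68 in cortical bone of vehicle-treated wild type. BeadChip 1 held the lowest value of the trabecular group and the highest of the cortical group, and over the 4 groups Ifitm3 differed by −0.21 to 0.34. Bst2, or tetherin, which holds budding virus at the cell surface, ranged from −0.42 to 0.31.

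Of the 5 interferon-inducible GTPases, 1 was called. Igtp (IRGM3), which acts on vacuoles of intracellular microbes, read 12.26, 11.51, 11.39, 11.71 and 12.01 in trabecular and 10.72, 11.24, 11.10, 10.17 and 10.65 in cortical bone of vehicle-treated wild type. The groups were apart, and the difference was 1.00 ± 0.28, a fold of 2 (limma, adjusted p = 0.01). With the deletion and E2 it read 11.44, 11.65, 10.78, 11.45 and 11.92 against 9.99, 10.31, 11.10, 10.93 and 10.19 and differed by 0.94 ± 0.28 (limma, adjusted p = 0.0141), although on BeadChip 3 it was lower in trabecular bone. Irgm1 read 12.80, 13.41, 13.52, 13.37 and 13.17 against 13.18, 13.44, 13.28, 13.37 and 13.05 in vehicle-treated wild type, which overlap, and its differences ran from −0.34 to 0.09. Its other kept probe gave a mean bone difference of 0.43 over all arrays, against −0.11 for the one used, so the probes of Irgm1 disagree. Gbp2 (−0.26 to 0.24) and Gbp3 (−0.09 to 0.15), guanylate-binding proteins induced above all by interferon gamma, were not called, nor was Ifi47 (0.02 to 0.59).

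The remaining members, Psmb8 (0.05 to 0.39) and Psmb9 (0.25 to 0.50), catalytic subunits of the immunoproteasome, Cxcl10 (−0.19 to 0.45), Ifi35 (−0.27 to 0.08) and Rtp4 (−0.14 to 0.44), were not called in any group. Cxcl10 and Rtp4 were detected on 0 to 2 arrays of each group, so their values lie mostly within background.

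**Figure D4:**
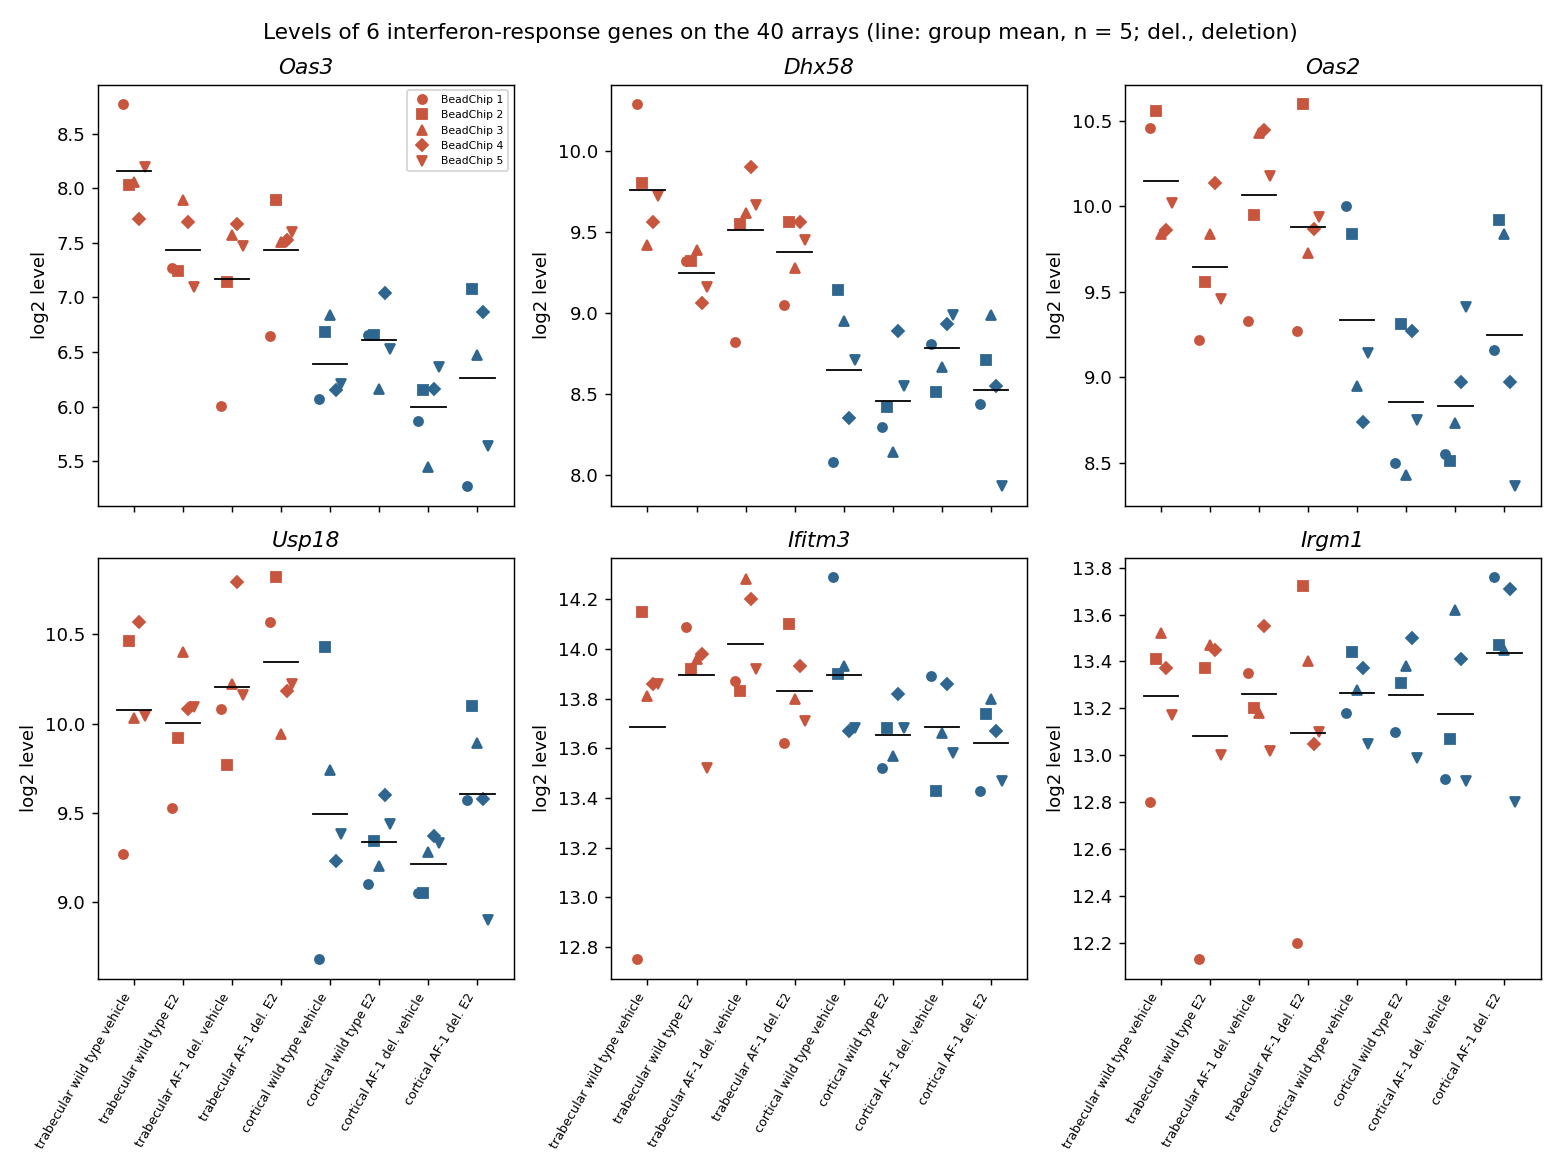
Log2 level (y axis, separate scale per gene) of Oas3, Dhx58, Oas2, Usp18, Ifitm3 and Irgm1 on the 40 arrays, by group (x axis); symbols mark the BeadChip, red is trabecular and blue cortical bone, and lines are group means, n = 5. Oas3, Dhx58 and Usp18 were higher in trabecular bone in 20 of 20 same-BeadChip pairs, whereas Ifitm3 and Irgm1 overlap between the bones.

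The study's main question, the action of E2 and its dependence on AF-1, was asked of the same genes within each bone. In wild-type trabecular bone 0 of 31 members were called, against 0.207% of all genes (limma). Before adjustment, 2 members and 6.78% of all genes had p under 0.05. Even so, 25 of the 31 members had a negative difference, E2 minus vehicle, while 48.7% of all genes had a positive one, with a median of −0.17 against −0.01 over all genes. Members vary together within groups (mean correlation 0.29), so a few arrays can set the sign of many members. The median on BeadChips 1 to 5 was −0.34, −0.32, 0.11, −0.06 and −0.31, so the BeadChips did not share 1 direction.

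Dhx58 had the smallest p. It read 9.32, 9.32, 9.39, 9.06 and 9.16 with E2 and 10.29, 9.80, 9.42, 9.56 and 9.72 with vehicle, so the E2 arrays all lay below the vehicle arrays, with a difference of −0.51 ± 0.19 (adjusted p = 0.645, limma). The share of all genes with groups so separated was not counted for this comparison, so nothing is drawn from the separation. Oas3 read 7.27, 7.24, 7.89, 7.69 and 7.10 against 8.77, 8.03, 8.06, 7.72 and 8.19, with overlap, and had −0.72 ± 0.29 (adjusted p = 0.684, limma), the largest difference of the list. Oas2 had −0.51 ± 0.25 (adjusted p = 0.748, limma). On BeadChip 1, whose trabecular arrays stood apart, the vehicle array was the highest of its group for Oas3 and Dhx58. Without it the differences were −0.39 for Dhx58 and −0.52 for Oas3, and the median of the members was −0.16. None of these genes passed the threshold under any of the alternatives run.

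In trabecular bone with the AF-1 deletion 0 of 31 members were called, against 0.0115% of all genes (limma), and 1 had an unadjusted p under 0.05. Positive and negative differences were balanced, 16 to 15, with a median of 0.02. Ifit2 had −0.45 ± 0.21 (adjusted p = 0.965, limma), Eif2ak2 −0.23 ± 0.13 and Ifi47 −0.34 ± 0.20. The largest difference was that of Irf7, 0.57 ± 0.34 (adjusted p = 0.965, limma). Tested as the difference between genotypes, the E2 effect depended on AF-1 for 0 of 31 members, against 0.0115% of all genes (limma). Before adjustment, 3.65% of all genes and 2 members had p under 0.05. These were Oas3, with −0.98 ± 0.41 for wild type minus deletion, and Ifit2, with 0.69 ± 0.29 (adjusted p = 0.997 for both, limma), followed by Oas1g with −0.95 ± 0.46. The median was −0.14, but 0.02 without BeadChip 2, −0.27 without BeadChip 3 and −0.25 without BeadChip 4.

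In wild-type cortical bone 0 of 32 members were called, against 0.143% of all genes, 0.132% higher and 0.011% lower with E2 (limma). Before adjustment, 3.13% of all genes and 1 member had p under 0.05. That was Ifit3, which read 9.02, 9.17, 9.09, 9.67 and 9.17 with E2 and 9.53, 10.22, 9.47, 9.99 and 9.78 with vehicle. It was lower with E2 on 5 of 5 BeadChips although the groups overlapped through the E2 array of BeadChip 4, and the difference was −0.58 ± 0.22 (adjusted p = 1, limma). The largest difference was that of Ifi35, an interferon-induced leucine zipper protein, with 0.73 ± 0.39, and Ifitm3 had −0.24 ± 0.14. The list had a median of −0.06 and 21 of 32 negative.

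In cortical bone with the deletion 0 of 32 members were called, against 0% of all genes, and 0 had an unadjusted p under 0.05 (limma). Ddx58 had 0.57 ± 0.30, Oas1g 0.51 ± 0.35 and Usp18 0.39 ± 0.25 (adjusted p = 0.999 for each, limma), and the median was 0.04. AF-1 dependence was called for 0 of 32 members, against 0% of all genes (limma). At an unadjusted p under 0.05 were 2.35% of all genes and 1 member, Oas2 (−0.90 ± 0.43). Ddx58 had −0.78 ± 0.43 and Ifit3 −0.59 ± 0.31, and the median was −0.13. That median rests on single BeadChips, with 0.04 without BeadChip 2, 0.06 without BeadChip 3, −0.28 without BeadChip 4 and −0.32 without BeadChip 5, and it was −0.43 with array weights.

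**Figure D5:**
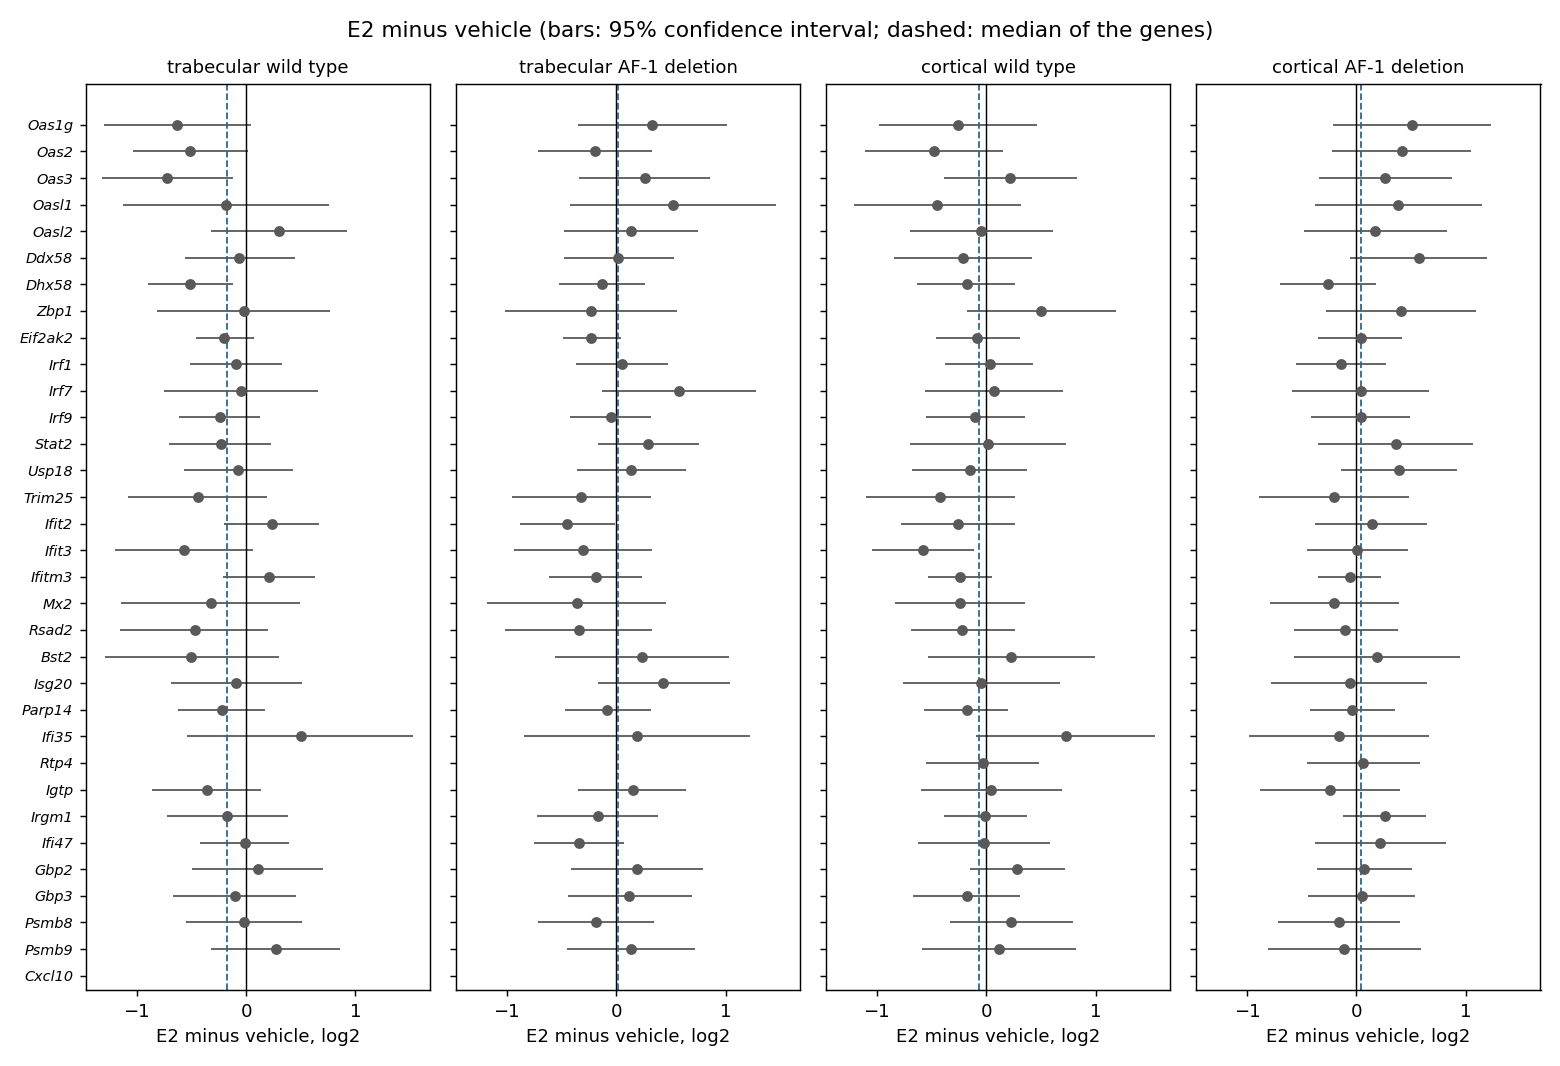
E2 minus vehicle log2 difference (x axis) of each gene (y axis, in order of role) in both bones and genotypes, with 95% confidence intervals from the limma fit and the median of the genes as a dashed line. None of the genes is called; the medians are −0.17 and 0.02 in trabecular and −0.06 and 0.04 in cortical bone, for wild type and AF-1 deletion.

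The deletion itself was compared at each treatment. In trabecular bone with vehicle 0 of 31 members were called, against 0% of all genes (limma). Before adjustment, 4 of the 31 members and 4.27% of all genes had p under 0.05. Oas3 read 6.01, 7.14, 7.57, 7.67 and 7.47 with the deletion against 8.77, 8.03, 8.06, 7.72 and 8.19 in wild type, all of the first below all of the others, and had −0.98 ± 0.29 (adjusted p = 0.941, limma). Here too the share of all genes so separated was not counted. Ifit2 read 9.12, 8.62, 8.41, 9.15 and 8.79 against 7.45, 8.63, 8.09, 8.40 and 8.42 and had 0.62 ± 0.21, and Eif2ak2 had 0.29 ± 0.13 (adjusted p = 0.941 for both, limma). The BeadChip 1 arrays were at the extremes here, with an Oas3 difference of −2.77 on that BeadChip. Without it Oas3 had −0.53 and Ifit2, whose groups overlapped, 0.36. With E2, 0 of 31 were called, against 0.0345% of all genes, 0 with an unadjusted p under 0.05 (limma), and 25 of 31 were positive, with a median of 0.19. Gbp2 had 0.55 ± 0.29, Irf9 0.33 ± 0.18 and Eif2ak2 0.26 ± 0.13.

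In cortical bone with vehicle 0 of 32 members were called, against 0% of all genes, and with E2 0 of 32, against 0.022% (limma). At an unadjusted p under 0.05 were 0 members in both, against 2.83% and 2.08% of all genes. With vehicle, Ifi35 had 0.71 ± 0.39, Ddx58 −0.54 ± 0.30 and Oas2 −0.50 ± 0.30. With E2, Oasl1 had 0.42 ± 0.37, Ifi47 0.41 ± 0.29, Ifit3 0.40 ± 0.22 and Oas2 0.40 ± 0.30. Over the 4 groups of a bone jointly, limma's F test called 0 of 31 members in trabecular bone, against 0.184% of all genes. There Eif2ak2, Oas3 and Ifit2 had an unadjusted p under 0.05, as did 4.68% of all genes. The F test called 0 of 32 in cortical bone, against 0.0989%. An unadjusted p under 0.05 was found there for 0 members and 2.89% of all genes.

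Whether E2 acted differently in the bones was tested on all 40 arrays, and 0 of 33 members were called in either genotype, against 0.0106% of all genes in wild type and 0% with the deletion (limma). Before adjustment, 2.71% of all genes in wild type and 2.14% with the deletion had p under 0.05. In wild type 1 member had an unadjusted p under 0.05, Oas3 with −0.94 ± 0.42 for trabecular minus cortical (adjusted p = 1, limma), followed by Ifitm3 with 0.45 ± 0.24 and Ifit2 with 0.50 ± 0.33. With the deletion 0 had one, and Ifit2 (−0.59 ± 0.33), Ifi47 (−0.56 ± 0.35), Oas2 (−0.61 ± 0.40) and Zbp1 (−0.64 ± 0.52) came nearest or had the largest difference. These nulls have a width: the 95% intervals of the members had a median half-width of 0.57 in trabecular and 0.59 in cortical bone for E2 and genotype, and of 0.80 to 0.84 for AF-1 dependence. Over the E2 and deletion comparisons the intervals of single members reached from −1.58 to 1.54.

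The members also varied together among arrays of the same group. With the group means taken out, the 528 pairs of members had a mean correlation of 0.29 over the 40 arrays, with 478 pairs above 0 and a range of −0.46 to 0.79. Over all pairs of the 9451 genes the mean correlation was 0.00888. The points share BeadChips, normalization and perhaps animals, so this is a description. Irf9 (0.43), Usp18 (0.41) and Irf7 (0.40) had the highest mean correlation with the other members, and Zbp1 (0.04), Ifi35 (0.11) and Isg20 (0.12) the lowest. By role the oligoadenylate synthetases stood at 0.52 and the transcription factors at 0.42, while the sensors and the antiviral effectors stood at 0.20 each. The pairs with the highest values were Oasl2 with Ifi47 (0.79), Irf9 with Ifi47 (0.77) and Oas3 with Oasl1 (0.74).

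The rest of the interferon pathway was read from named lists. The interferon genes Ifnb1 and Ifng were detected on 0 of 40 arrays, as was the type I receptor chain Ifnar1, while its partner Ifnar2 and the interferon gamma receptor chains Ifngr1 and Ifngr2 were detected on all 40. Of the 9 tested genes of interferons, receptors and kinases, 0 were called between the bones in the first 3 groups. With the deletion and E2, the lambda receptor Ifnlr1 (1.00 ± 0.28) was called higher and Ifngr2 (−0.60 ± 0.21) lower in trabecular bone. Of 10 sensors and adaptors tested, 2, 0, 2 and 1 were called higher and 0 lower, among them Irf5 (0.51 to 0.81 in 3 groups), a transcription factor downstream of Toll-like receptors, and Tlr7 (0.71 in 1 group), an endosomal RNA sensor. Of 4 negative regulators tested, 1, 0, 0 and 1 were called higher, Ptpn6 each time.

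Of 52 further interferon-induced genes that are not members, 33 could be tested. Between the bones 10, 8, 12 and 12 of them were called higher in trabecular bone, and 1, 0, 0 and 0 lower, with medians of 0.36, 0.37, 0.48 and 0.44. Over all genes 9.01%, 7.99%, 9.5% and 11% were called higher and 11.6%, 11.4%, 12.7% and 12% lower, which is also the background for the counts of the other pathway lists. Adar, an RNA-editing enzyme (0.62 to 0.98), Tap1, a peptide transporter of antigen presentation (0.74 to 0.92), Uba7, the activating enzyme of ISG15 (0.45 to 0.63), and Ly6e (0.52 to 0.81) were called in all 4 groups. Ube2l6, the conjugating enzyme of ISG15, was called in 3 (0.95 to 1.43), and so were Sp100, a nuclear body protein (0.72 to 1.06), and Tapbp, tapasin (0.76 to 1.06). The 1 gene called lower was Tap2, the partner of Tap1, at −0.72 with wild type and vehicle. Of these pathway lists 0 genes were called in the E2 and deletion comparisons.

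Marker lists of cell types were compared between the bones on the same arrays, by their summed level over the 20 arrays of each bone. Such sums are bulk RNA, so cell number and RNA per cell cannot be told apart. Over all genes 9.01%, 7.99%, 9.5% and 11% were called higher in trabecular bone and 11.6%, 11.4%, 12.7% and 12% lower. These shares are the background for each count of markers called. The 5 T and NK cell markers read of 7 ranged from 11.81 to 12.86 in trabecular and from 11.04 to 12.63 in cortical bone. These are log2 values of the sum, with means 0.41 apart. Called higher in trabecular bone were 3, 0, 3 and 4 of these markers. The 4 B lineage markers read of 7 ranged from 12.05 to 13.28 and from 11.30 to 12.90 (0.55 apart), with 1, 2, 1 and 2 called higher and Pax5 detected on 0 arrays. Monocyte and macrophage markers (5 of 8) lay 0.16 apart, with Ccr2 on 0 arrays, neutrophil markers (7 of 7) 0.13 and erythroid markers (6 of 6) 0.21, each with the higher mean in trabecular bone. Of these, 0, 0, 1 and 0 monocyte and macrophage, 0, 1, 0 and 1 neutrophil and 2, 2, 3 and 2 erythroid markers were called higher, and 0 lower. Plasmacytoid dendritic cell markers (4 of 5, Ccr9 on 0 arrays) had a summed difference of −0.35, with 1, 2, 1 and 1 called lower and 0, 0, 1 and 0 higher. In each group 2 of these 4 markers were positive, with medians of 0.01, −0.07, 0.03 and 0.05. The sum weighs bright markers most, and the markers of this list shared no direction. Osteoblast markers (5 of 6) had −0.35, with 4, 2, 2 and 3 called lower in trabecular bone, and endothelial markers (4 of 5) −0.60, with 2, 2, 1 and 3 called lower. Osteocyte markers (4 of 5, Fgf23 on 0 arrays) ranged from 9.48 to 10.75 in trabecular and 11.95 to 13.42 in cortical bone, with 4 of 4 called lower in trabecular bone in each group and Sost on 19 arrays. Skeletal muscle markers (6 of 6) ranged from 13.18 to 15.14 and 14.94 to 17.03, with 6 of 6 called lower. The part of these cell types in the higher interferon-response genes of trabecular bone was not tested.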

How the data were processed

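RNA of both bones was hybridised to Illumina BeadChips, and the labels gave the 8 groups of 5 arrays. Per the file headers and the submitters' processing notes, which name GenomeStudio, each of 25697 probes has, for every array, an average bead intensity and a detection p-value as deposited. The authors' processed table, judged from its values, holds the same intensity values after quantile normalization, without logs. The version, the arrays' background handling and the annotation build are not given in the sources used here, and 0 columns were without a sample.

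The function neqc of limma 3.58.1 (R 4.3.3, with statmod 1.5.0) estimated background from the detection p-values, added an offset of 16, applied quantile normalization and took log2. Probes entered with a detection p under 0.01 on 5 or more of the fitted arrays, and the brightest such probe stood for its gene. Symbols were updated through RefSeq, giving 17914 genes. Group means were fitted with limma (lmFit, eBayes) on the 20 arrays of a bone or, between bones, on 40, with Benjamini-Hochberg adjustment over all genes (8693 trabecular, 9096 cortical, 9451 both). The script was tested on simulated data. The members and all lists were chosen with earlier results of these data known. Named were members with a call, the 3 with the smallest p where none had one, the 2 with the brightest probes, the largest difference of each E2 or deletion comparison and, of the pathway lists, up to 4 called genes per comparison; 1 further gene that the rule names is not reported here.

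Each replicate number stands for 1 BeadChip in the array titles, so it marks a shared batch. Residuals of same-numbered arrays correlated across genes at a mean of 0.0751 to 0.149 in trabecular and −0.171 to 0.243 in cortical bone. The fits had no BeadChip term, and a replicate block was an alternative. Signal over background and the number of arrays limit the precision.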

Additional observations from a re-analysis of the deposited data

Results flagged for a closer look

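Outlying arrays were looked for in the mean member level and in 20 members. These were the members with a call, the 3 with the smallest p where a comparison had none, and the 2 with the brightest probes. Each group of 5 arrays was checked for a value whose gap to its neighbour exceeded 0.71 of the group's range. Of 168 groups 8 had one, 4.76%, and chance flags about 1 in 20. Of the 8 flagged values, 5 were on trabecular arrays of BeadChip 1. Irf9 (9.88 against 10.55 to 10.76) and Ddx58 (6.64 against 7.79 to 8.21) were on the same array, wild type with E2. Ifitm3 was flagged in wild type with vehicle (12.75 against 13.81 to 14.15). The AF-1 deletion had Rsad2 with vehicle (13.79 against 13.49 to 13.55) and Isg20 with E2 (10.66 against 8.88 to 9.18). The first 3 were low and the other 2 high, on arrays that detected the fewest probes. The remaining values were Ifit3 in cortical wild type with E2 on BeadChip 4 (9.67 against 9.02 to 9.17), Ifitm3 in trabecular wild type with E2 on BeadChip 5 (13.52 against 13.92 to 14.09) and Isg20 in the cortical AF-1 deletion with E2 on BeadChip 5 (6.68 against 8.42 to 9.05). The cause was not tested.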

How the results depend on the processing

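For each comparison the number of members called was recomputed under up to 18 alternatives, and the 14 comparisons other than the 4 between bones gave 0 in every one. The median difference of the members, array weights left aside, moved by less than 1 SD over BeadChips in all 192 cases, although several E2 and deletion medians near 0 changed sign. Many of these cases could hardly do otherwise. The replicate block leaves group differences unchanged, since each BeadChip holds 1 array of every group. Leaving out 1 of 5 BeadChips can move a group difference only a little against that SD. The count is thus no measure of robustness. Between the bones the members' median stayed positive in each setting (0.20 to 0.36, 0.23 to 0.44, 0.39 to 0.60 and 0.21 to 0.58 in wild type with vehicle, wild type with E2, deletion with vehicle and deletion with E2, in which order values follow). The 0.21, against 0.43, came with array weights. For E2 in wild-type trabecular bone it stayed negative (−0.22 to −0.07). Between the bones the counts of 5, 4, 9 and 6 became 1, 0, 1 and 0 after median scaling and 2, 1, 5 and 2 at an adjusted p under 0.01. Array weights gave 11, 12 and 18 in the first 3, where calls over all genes went from 1950, 1832 and 2103 to 2827, 3253 and 3975. The replicate block gave 8 in wild type with vehicle and moved no other count by over 1.5 times, and it ended none of the 24 calls. That block combined with leaving out BeadChip 1 gave 11 in wild type with vehicle and 15 in the deletion with vehicle. Without a filter on dim probes wild type with E2 had 1, and with only the arrays compared the last had 3. Leaving out 1 BeadChip at a time gave 2 to 7, 0 to 5, 4 to 13 and 0 to 8. Of the 24 calls, 22 were lost after median scaling, which took the median of all genes between the bones from 0.05 or 0.06 to between −0.04 and −0.01. Oas3 kept its call in vehicle-treated wild type in all 16 alternatives run. None of 36 uncalled named results gained a call or changed sign. Median scaling changes the spread between arrays as well as their centre; the cause of the lost calls was not tested. Members near background (Cxcl10, Rtp4, Trim25, Oas3, Mx2) allow only weak statements, and array signal over background limits them.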
